A study of Saccharomyces cerevisiae with 8 samples.

Results

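The arginine synthesis genes of Saccharomyces cerevisiae are described here across a strain labelled parental and 3 evolved strains. Members were chosen by name: ARG1, ARG2, ARG3, ARG4, ARG7, ARG8, CPA1 and ORT1, 8 of the 5449 genes tested. Each of the 8 had 1 probe set, a group of array oligonucleotides for 1 transcript, and stood above background on all 8 arrays. Their locus tags are YOL058W (ARG1), YJL071W (ARG2), YJL088W (ARG3), YHR018C (ARG4), YMR062C (ARG7), YOL140W (ARG8), YOR303W (CPA1) and YOR130C (ORT1), so that 4 lie on chromosome XV, 2 on X and 1 each on VIII and XIII. The pathway gene ARG5,6 had no probe set assigned in the annotation and was not analysed here. Total RNA was hybridised to Affymetrix yeast arrays, 2 for the parent and 2 for each evolved strain. The labels name the parent as BY4742, a laboratory strain, and give no further genotype. The evolved strains 1, 2 and 3 are individual isolates taken after about 450 generations. All groups share complete medium with 2% glucose and 0.5% ammonium sulfate at 30 °C, and serial transfer of 10 µl into fresh 100 ml cultures. The labels call the 2 arrays of each strain biological replicates. They do not say whether the medium held arginine or whether the isolates came from separate populations.

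Yeast makes ornithine from glutamate inside the mitochondrion, through acetylated intermediates, and exports it to the cytosol. There ornithine is joined with carbamoyl phosphate to citrulline, which is turned into argininosuccinate and then arginine. In the presence of arginine a complex of Arg80, Arg81 and Mcm1, with Arg82, represses the synthesis genes and activates the genes of arginine breakdown. Gcn4, the activator of general amino acid control, raises transcription of the synthesis genes when amino acids are short, and is itself controlled mainly through translation of its mRNA. CPA1 is further controlled by a small peptide encoded in the leader of its mRNA, which stalls ribosomes when arginine is plentiful.

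The strain labels were checked first. BY4742 lacks LYS2, LEU2 and URA3, has a partly deleted HIS3, carries MET17 and is of mating type alpha. LYS2 was above background on all 8 arrays, with a parental level of 9.07 ± 0.04 (log2 intensity, SD, n = 2), while MET17 was above background on 2 of 8 arrays. The summed intensity of the 7 a-specific genes was 13668 to 14255 on the arrays labelled parental and 2378 to 3074 on the evolved arrays. That of the 4 alpha-specific genes was 423 to 436 and 497 to 511. The alpha-factor gene MF(ALPHA)1 was above background on 6 of 8 arrays, the evolved ones, and on neither parental array. It was dim on the evolved arrays, at 5.23 to 5.77 (log2 intensity). MF(ALPHA)2, STE3 and SAG1 were above background on all 8 arrays, the parental ones included. Of the 7 a-specific genes 1, STE6, was higher in the mean of the evolved strains (0.32, log2). Of the 4 alpha-specific genes 1, SAG1, was lower (-0.18). URA3 was above background on 0 of 8 arrays. LEU2 was above background on all 8 but dim, at 5.33 ± 0.08 (log2 intensity, SD, n = 2) in the parent, and HIS3 stood at 11.40 ± 0.03, which checks nothing if its probes lie outside the deleted stretch. LYS2, MET17 and the summed a-specific genes thus go against the strain name, while URA3 does not, and "parental" below means the arrays labelled so. The 3' minus 5' signal of control transcripts, a sign of RNA quality, was greater in the parent for 5 of 7 controls and greater in the evolved strains for 2. Its shift from parental to evolved arrays had a log2 median of -0.26. The part of strain identity and RNA quality in the differences below was not tested. The comparisons of the 3 strains share the same 2 parental arrays.

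Of the 8 arginine genes, 7 were higher and 1, ARG8, was lower in the evolved strains than in the parent, and 6 rose by at least 2-fold. The rises were between 2.53-fold (ORT1) and 5.5-fold (ARG1) for these 6, CPA1 rose by 0.23 on the log2 scale, and ARG8 fell by 0.55. All 8 passed the test in the mean of the evolved strains and in each strain, at an adjusted p under 0.05 with limma. With the strain as a random block, CPA1 was not called in the mean contrast (adjusted p = 0.0961 with limma). The other 7 were, where 56.8% of all genes were called. This fit allows arrays of the same strain to be correlated, with a single correlation of 0.85 for all genes. Its degrees of freedom still count arrays, and only 1 strain is parental, so it is not a test with strains as the units. The background is wide: in the mean contrast 86.7% of all genes tested passed, with 43.3% called higher and 43.4% lower, so being called sets no gene apart. A call with a rise of at least 2-fold was made for 10.9% of genes. The median log2 difference was 1.58 over the 8 arginine genes and -0.01 over all genes tested. In 7 members the 6 evolved arrays all lay above both parental arrays, and in ARG8 all lay below them, which was so for 38.2% and 38.9% of all genes.

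**Figure D1:**
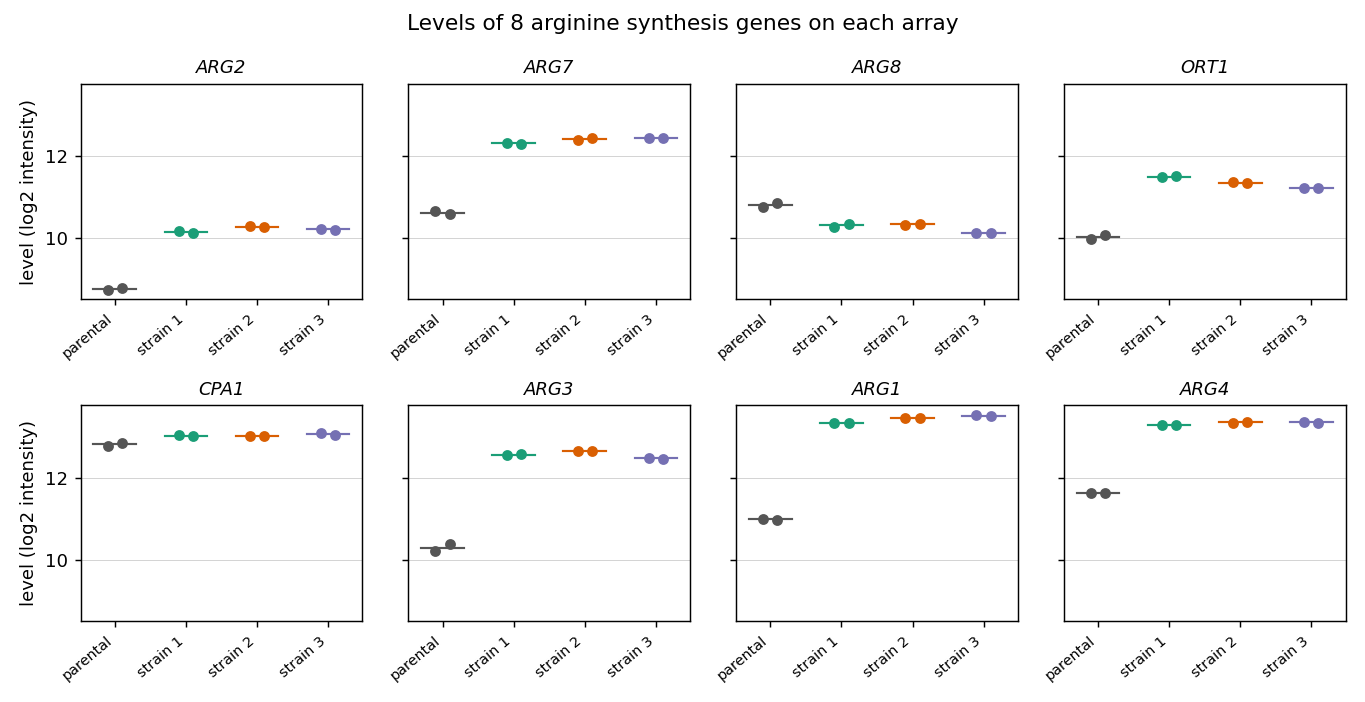
Level (log2 intensity, y axis) of each arginine synthesis gene on each of 8 arrays, with 1 point per array and a line at the mean of the 2 arrays of a strain. In 7 genes the evolved arrays lie above both parental arrays and in ARG8 below them; levels of different genes come from different probe sets and are not to be compared.

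ARG2 encodes acetylglutamate synthase, which opens the mitochondrial branch and is inhibited by arginine. Its level was 8.74 and 8.77 (log2 intensity) on the 2 parental arrays, 10.17 and 10.12 in strain 1, 10.29 and 10.27 in strain 2, and 10.22 and 10.21 in strain 3. The evolved arrays lay in a narrow band above the parental ones. The mean log2 difference was 1.46 ± 0.03 (SE, 2 parental and 6 evolved arrays), with a 95% confidence interval of 1.40 to 1.52 and an adjusted p with limma of 1.41e-08. Here and below, the SE and interval of a mean difference measure the spread of arrays within strains, not that between evolved strains.

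ARG7 encodes the mitochondrial ornithine acetyltransferase, which releases ornithine and returns the acetyl group to glutamate. Its level was 10.67 and 10.58 on the parental arrays, 12.34 and 12.31 in strain 1, 12.41 and 12.46 in strain 2, and 12.44 and 12.46 in strain 3. No evolved array came near the parental ones, and strains 2 and 3 overlapped. The mean log2 difference was 1.78 ± 0.03 (SE), with an interval of 1.70 to 1.86.

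ARG8 encodes acetylornithine aminotransferase, the mitochondrial step just before the one of Arg7. Its level was 10.75 and 10.86 on the parental arrays, 10.26 and 10.35 in strain 1, 10.33 and 10.35 in strain 2, and 10.12 and 10.14 in strain 3. ARG8 was the 1 member with lower levels in the evolved strains, and the 2 arrays of strain 3 were the lowest of the 8. It fell by 0.55 ± 0.04 (log2, SE), or 1.46-fold, with an interval of -0.64 to -0.46 and an adjusted p with limma of 8.81e-06.

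ORT1, also named ARG11, encodes the carrier of the mitochondrial inner membrane that exports ornithine to the cytosol. Its level was 9.97 and 10.08 on the parental arrays, 11.49 and 11.52 in strain 1, 11.37 and 11.35 in strain 2, and 11.22 and 11.23 in strain 3. The evolved strains did not overlap with each other, which was also so for ARG1, ARG2 and ARG3. In ORT1 strain 1 was the highest and strain 3 the lowest. How often all genes separate in this way was not counted. The mean log2 difference from the parent was 1.34 ± 0.03 (SE), with an interval of 1.26 to 1.42.

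CPA1 encodes the small subunit of the cytosolic carbamoyl phosphate synthetase, which takes the amide nitrogen of glutamine. Its level was 12.80 and 12.86 on the parental arrays, 13.07 and 13.03 in strain 1, 13.04 and 13.04 in strain 2, and 13.12 and 13.05 in strain 3. The groups did not overlap, but the gap was small beside those of the other risen members. The mean log2 difference was 0.23 ± 0.03 (SE), or 1.17-fold, with an interval of 0.16 to 0.30 and an adjusted p with limma of 0.000286. This is the 1 member whose call was lost with the strain as a random block.

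ARG3 encodes ornithine carbamoyltransferase, which joins ornithine and carbamoyl phosphate to citrulline. Its level was 10.21 and 10.39 on the parental arrays, 12.57 and 12.58 in strain 1, 12.68 and 12.68 in strain 2, and 12.50 and 12.48 in strain 3. The 2 parental arrays were farther apart than those of any evolved strain, by a small amount beside the rise. The mean log2 difference was 2.29 ± 0.05 (SE), or 4.87-fold, with an interval of 2.17 to 2.40.

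ARG1 encodes argininosuccinate synthetase, which adds aspartate to citrulline. Its level was 11.00 and 10.99 on the parental arrays, 13.35 and 13.34 in strain 1, 13.47 and 13.48 in strain 2, and 13.55 and 13.52 in strain 3. The evolved strains stood far above the parent and did not overlap with each other. With a mean log2 difference of 2.46 ± 0.02 (SE) and an interval of 2.40 to 2.51, ARG1 had the largest rise of the 8, and it ranked 36 among the 5449 genes by size of rise. Its adjusted p with limma was 3.28e-09.

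ARG4 encodes argininosuccinate lyase, which cleaves argininosuccinate to arginine and fumarate. Its level was 11.65 and 11.65 on the parental arrays, 13.31 and 13.31 in strain 1, 13.36 and 13.39 in strain 2, and 13.38 and 13.36 in strain 3. Strains 2 and 3 overlapped and strain 1 lay slightly below them. The mean log2 difference was 1.70 ± 0.02 (SE), or 3.25-fold, with an interval of 1.65 to 1.76.

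The size of the change varied along the pathway. The 3 enzymes that turn ornithine into arginine in the cytosol, ARG3, ARG1 and ARG4, rose by 1.70 to 2.46 on the log2 scale. In the mitochondrial branch ARG2 and ARG7 rose by 1.46 and 1.78 while ARG8 fell by 0.55, and the carrier gene ORT1 rose by 1.34. The confidence intervals of ARG8 and CPA1 did not overlap with those of the other 6 or with each other. These intervals leave out the spread between evolved strains. For ORT1 the interval was 1.26 to 1.42, while the difference was 1.48 in strain 1 and 1.21 in strain 3. Whether the mRNA changes altered enzyme amounts or arginine levels was not measured.

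**Figure D2:**
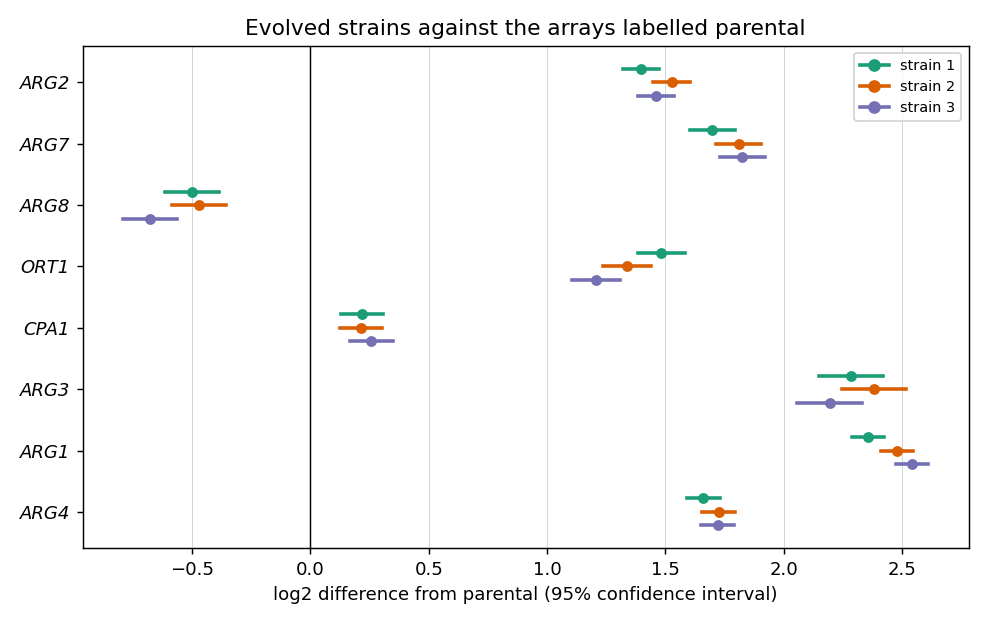
Log2 difference from the parental arrays (x axis) of each arginine synthesis gene in each evolved strain, as estimate and 95% confidence interval from limma (2 arrays against 2, filled points called at adjusted p under 0.05). ARG8 lies below 0 and CPA1 just above it in every strain, and the other 6 genes lie between 1.21 and 2.54.

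Each strain was also set against the parent alone. In strain 1 the log2 differences ran from -0.50 (ARG8) to 2.35 (ARG1), in strain 2 from -0.47 (ARG8) to 2.48 (ARG1), and in strain 3 from -0.68 (ARG8) to 2.54 (ARG1). The median over the 8 genes was 1.57, 1.63 and 1.59. In each strain 7 members were called higher and 1 lower, where 84.5%, 85.1% and 84.1% of all genes were called in strains 1, 2 and 3. Of all genes, 40.6% were called higher and 43.9% lower in strain 1, 42.5% and 42.6% in strain 2, and 43% and 41.1% in strain 3. CPA1 differed by 0.22 ± 0.04, 0.21 ± 0.04 and 0.26 ± 0.04 (SE) in the 3 strains, with adjusted p-values with limma between 0.000502 and 0.00131. The direction of all 8 members was thus shared by the 3 strains, which were compared with the same 2 parental arrays; 71.2% of all genes were called with 1 sign in all 3 strains.

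Differences between the evolved strains do not involve the parental arrays directly. Those arrays enter through the shared estimate of spread, and through the normalisation across arrays if all 8 were processed together. The differences between evolved strains were small, at most 0.28 on the log2 scale. A moderated F test over the 3 strains called 5 of the 8 members, against 68.9% of all genes. ORT1 was highest in strain 1, which exceeded strain 3 by 0.28 (interval -0.38 to -0.18 for strain 3 minus strain 1, adjusted p = 0.00191 with limma). ARG1 ran the other way, 0.19 higher in strain 3 than in strain 1 (interval 0.12 to 0.26, adjusted p = 0.00188 with limma). These calls of ORT1 and ARG1 were made under all 16 alternatives tried for them. The mean over probe sets and the filter on dim genes are among the 16 and could not change these differences.

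ARG8 was lower in strain 3 than in strain 1 by 0.18 (interval -0.29 to -0.06) and than in strain 2 by 0.21 (interval -0.32 to -0.10). ARG2 was 0.13 higher in strain 2 than in strain 1 (interval 0.05 to 0.21), and ARG7 was 0.13 higher in strain 3 than in strain 1 (interval 0.03 to 0.22). ARG3 was 0.19 lower in strain 3 than in strain 2 (interval -0.32 to -0.05), although the F test did not call it (adjusted p = 0.0573 with limma). ARG4 and CPA1 were called between no 2 strains, and the intervals of their differences stayed within -0.07 and 0.13 for ARG4 and within -0.09 and 0.13 for CPA1. In all, 3 members were called between strains 1 and 2 (52.7% of all genes), 4 between strains 1 and 3 (57.5%) and 2 between strains 2 and 3 (32%).

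These counts depended on single arrays. Between strains 1 and 2 no member was called without replicate 2 of strain 1 or without either array of strain 2. In those fits 2, 4 and 2 members had an unadjusted p under 0.05, for strain 1 replicate 2, strain 2 replicate 1 and strain 2 replicate 2 in that order. With either parental array left out, 5 were called. Between strains 1 and 3 the count was 2 without replicate 2 of strain 1 or without either array of strain 3, namely ARG1 and ORT1. Between strains 2 and 3 it was 1 without either array of strain 1, 0 without any 1 array of strains 2 or 3, where 1 to 2 members had an unadjusted p under 0.05, and 3 without either parental array. Over all genes the calls between strains 2 and 3 fell as well, from 1744 to between 760 and 825, without any 1 array of strains 2 or 3. The F test called 2 members, ARG1 and ORT1, without either array of strain 3, and 3, these and ARG8, without replicate 2 of strain 1 or either array of strain 2. A strain left with 1 array was assumed to vary like the others. With each array centred on its median, 1, 3 and 1 members were called between strains 1 and 2, 1 and 3, and 2 and 3, and 3 by the F test. Over all genes, the calls between strains 1 and 2 were then 1098 higher and 1713 lower, against 1625 and 1248 without centring. Between strains 1 and 3 they were 1368 and 1722, against 1804 and 1328. For strains 2 and 3 they were 1047 and 735, against 953 and 791. Most member counts without single arrays stand here without those over all genes. They do not set the members apart from other genes.

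**Figure D3:**
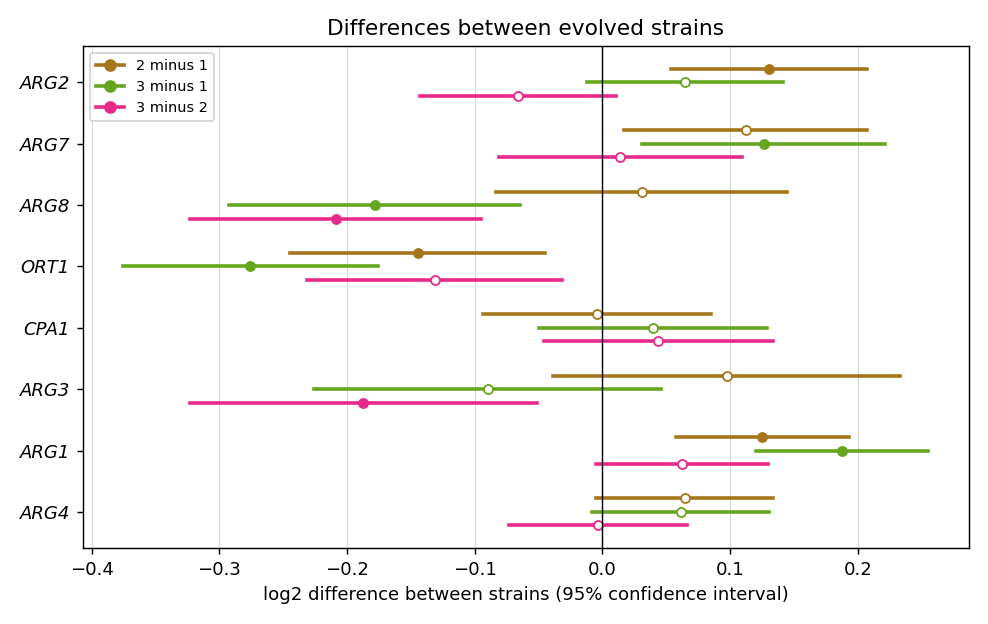
Log2 difference between evolved strains (x axis) of each arginine synthesis gene, as estimate and 95% confidence interval from limma, with filled points called at adjusted p under 0.05 and open points not called. The differences run from -0.28 (ORT1, strain 3 minus strain 1) to 0.19 (ARG1, strain 3 minus strain 1).

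The transcripts of the factors that act on these genes moved in both directions. Of the 4 arginine-specific regulators, ARG80 rose by 0.51 ± 0.06 and ARG81 by 0.32 ± 0.04 (log2, SE), while ARG82 fell by 1.44 ± 0.05 and MCM1 by 0.80 ± 0.05. ARG80 stood at 8.32 and 8.54 on the parental arrays and between 8.84 and 8.99 on the evolved ones. ARG82, an inositol polyphosphate kinase that stabilises the repressor complex, stood at 11.01 and 10.89 on the parental arrays and between 9.21 and 9.73 on the evolved arrays. With the strain as a random block ARG81 was not called (adjusted p = 0.0754). The median of this list was -0.24.

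Of 7 genes of general amino acid control, 4 rose and 3 fell, with a median of 0.25. Over all genes, 43.3% were called higher and 43.4% lower. GCN4 itself differed by -0.08 ± 0.02 (log2, SE), at 13.31 and 13.29 on the parental arrays and 13.07 to 13.32 on the evolved ones, so that the groups overlapped. Its adjusted p with limma was 0.0146, and 0.0506 without replicate 1 of the parent. GCN2, the kinase that senses uncharged tRNA, fell by 0.37, and GCN3, a subunit of the initiation factor that this kinase acts through, by 0.14. GCN1 and GCN20, which act with that kinase at the ribosome, rose by 1.44 and 0.91. YIH1, an inhibitor of the same step, rose by 0.81, and PCL5, a cyclin for Gcn4 breakdown, by 0.25. With the strain as a random block 4 of the 7 were called, against 56.8% of all genes. GCN3, GCN4 and PCL5 were not called, at adjusted p-values with limma of 0.495, 0.574 and 0.0548.

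**Figure D4:**
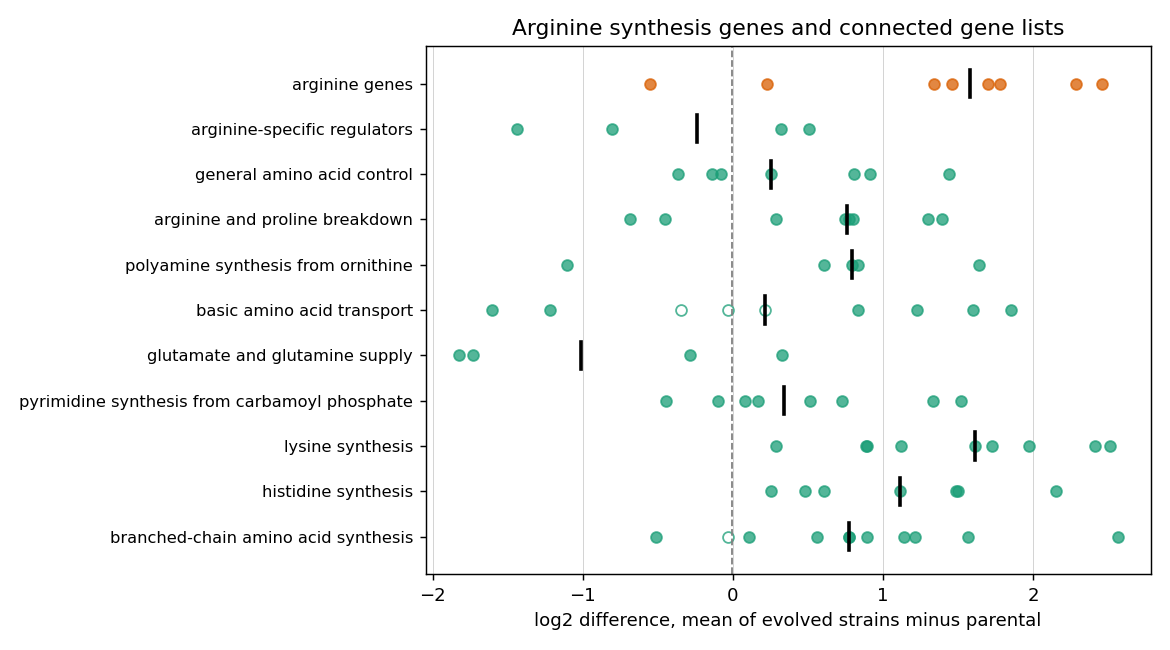
Log2 difference, mean of the evolved strains minus parental (x axis), for the arginine synthesis genes (orange) and 10 other gene lists (green), with 1 point per gene, filled where called at adjusted p under 0.05. A black bar marks each list's median and the dashed line the median of all 5449 genes at -0.01.

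Genes that use or supply the pathway's intermediates were read from further lists, with 43.3% of all genes called higher and 43.4% lower as the background. Of 8 genes of arginine and proline breakdown and proline synthesis, 6 rose and 2 fell (median 0.76). PUT3, which is named for this loss, was 1 of the 6 and was not called with the strain as a random block (adjusted p = 0.189). The largest differences were those of PRO3, PRO1 and PRO2, the enzymes that make proline, at 1.39, 1.30 and 0.80, and of CAR2, the ornithine transaminase, at 0.77. CAR1, the arginase, rose by 0.74 ± 0.03 and was named after its value was seen, because it and CAR2 are activated by the complex that represses the synthesis genes. Of 5 polyamine genes 4 rose, with SPE2 at 1.64, SPE3 at 0.84 and SPE1, the ornithine decarboxylase, at 0.79, and OAZ1, the antizyme that marks this decarboxylase for breakdown, fell by 1.11.

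Of 9 genes of basic amino acid transport, 4 rose, 2 fell and 3 were not called (median 0.21). YPQ1 and RTC2, transporters of basic amino acids in the vacuolar membrane, rose by 1.86 and 1.60, and LYP1, the lysine permease, by 1.23, while GAP1, the general amino acid permease, fell by 1.60. CAN1, the arginine permease, rose by 0.84 ± 0.03 and was also named after its value was seen. In the glutamate and glutamine list GDH3 and GLN1 fell by 1.83 and 1.73 and GDH1 by 0.28, and GLT1 rose by 0.33. GLN1 makes the glutamine from which carbamoyl phosphate takes its nitrogen. Of 8 genes of pyrimidine synthesis, the other route that uses carbamoyl phosphate, 6 rose and 2 fell (median 0.34). URA7 rose by 1.52, URA2, which has its own carbamoyl phosphate synthetase, by 1.33, URA5 by 0.73 and URA1 by 0.51. With the strain as a random block 5 of these 8 were called, against 56.8% of all genes, and GLT1 was not (adjusted p = 0.0527 with limma).

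Other amino acid pathways with known Gcn4 targets moved in the same direction. Among the lysine genes 9 of 9 rose (median 1.62), with LYS9 at 2.51, LYS2 at 2.41, LYS21 at 1.97 and LYS12 at 1.72. All 7 histidine genes rose (median 1.12), with HIS4 at 2.16, HIS3 at 1.50, HIS5 at 1.49 and HIS2 at 1.12. Of 11 branched-chain genes 9 rose, 1 fell and 1 was not called (median 0.77), with ILV3 at 2.56, LEU9 at 1.56, ILV5 at 1.21 and ILV6 at 1.14. A rise of at least 2-fold was called for 6 of 8 arginine genes, 6 of 9 lysine genes, 4 of 7 histidine genes and 4 of 11 branched-chain genes, against 10.9% of all genes. With the strain as a random block LYS5, HIS6 and LEU1, which are named for this loss, were not called (adjusted p = 0.168, 0.191 and 0.45). Nothing in these counts sets the arginine genes apart from the lysine genes.

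The likeness of other genes to the arginine genes was measured over the 8 arrays. Each gene's log2 levels were centred on its mean, the median of the 8 members was taken on each array, and the Euclidean distance of every other gene from this 8-value profile was computed. The profile stood at -1.19 and -1.18 on the parental arrays and between 0.37 and 0.44 on the evolved arrays. The nearest 8 genes were ARO2 (distance 0.07), RTC2 (0.09), RPS20 (0.11), FAA4 (0.13), RIB3, HIS5, ARO3 and ZRT2 (each 0.15), and their mean log2 differences from the parent lay between 1.49 and 1.64. ARO2 and ARO3 belong to aromatic amino acid synthesis, and HIS5 to histidine synthesis. The distance rests mostly on the step between the parental and the evolved arrays.

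Among the members themselves ARG4 was nearest to the profile at a distance of 0.14, with 4 other genes nearer. ARG2 followed at 0.18, ARG7 at 0.26 and ORT1 at 0.45. ARG3 and ARG1, which rose most, were at 0.87 and 1.07. CPA1 at 1.67 and ARG8 at 2.63 were the farthest, with 1927 and 4166 other genes nearer.

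**Figure D5:**
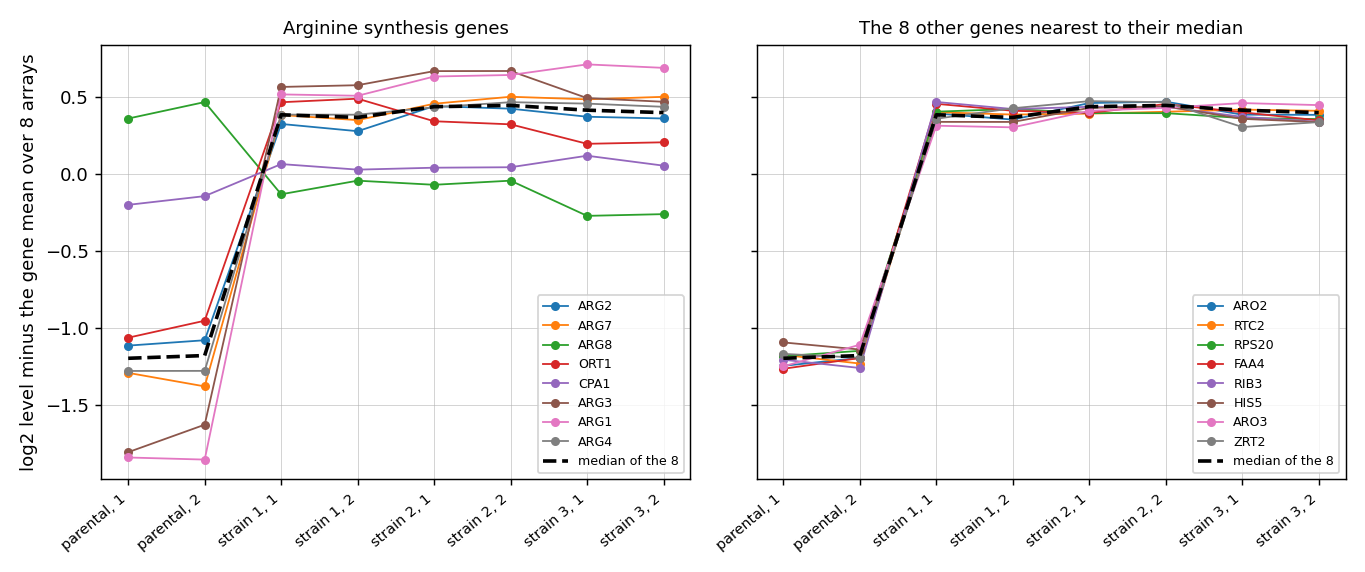
Log2 level minus the gene's mean over the 8 arrays (y axis) on each array (x axis, strain and replicate) for the arginine synthesis genes, left, and the 8 other genes nearest to their median profile, right; the dashed line is that median and lines only join the points of a gene. The median steps from -1.19 and -1.18 on the parental arrays to 0.37 to 0.44 on the evolved arrays, while CPA1 is nearly flat and ARG8 steps down.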

How the data were processed

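The deposited values are intensity values that the authors made with RMA, per the submitters' processing notes. RMA subtracts background, applies quantile normalisation across arrays and combines the probes of a set. No source used here gives its version. The intensity values were deposited on a linear scale, and log2 was taken here. Of 10928 probe sets, 5498 were assigned to 1 S. cerevisiae gene, 1 to several and 1746 to another yeast species, and 3683 were not listed. Genes with several probe sets (47) used the brightest. The background of an array was the level that 95% of its probe sets for the other species stayed under, between 4.27 and 4.40 on the log2 scale. The number of arrays limits the precision.

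All 8 arrays and 5449 genes were fitted with limma 3.58.1 in R 4.3.3, with 1 coefficient per strain (4 residual and 2.52 prior degrees of freedom). P-values were adjusted by Benjamini-Hochberg over all genes of a contrast, and genes were called under 0.05. An exact test of 2 arrays against 2 cannot go below p = 0.333. The members and lists, and the rule for naming genes (every member, every regulator, and in each other list up to 4 genes with the largest change), were chosen with earlier results of these data known. Alternatives were other scalings, a log offset, the mean over probe sets, a filter on dim genes, robust moderation, a replicate block, a strain block, fewer groups and leaving out each array. Each member had 1 probe set and stood above background on all 8 arrays. The mean over probe sets and the filter therefore left the members' log2 differences as they were.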

Additional observations from a re-analysis of the deposited data

Results flagged for a closer look

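The level of 5 members differed among the evolved strains by the moderated F test of limma, which called 68.9% of all genes. Their change from the shared parental arrays gives the same test, so it is not a further result. The adjusted p-values were 0.0034 for ARG1, 0.00374 for ORT1, 0.0143 for ARG8, 0.0258 for ARG2 and 0.0473 for ARG7. Over 16 alternatives the adjusted p ran from 6.2e-05 to 0.0261 for ARG1 and from 0.00021 to 0.0258 for ORT1, with both called in each. For ARG8 it ran from 0.00248 to 0.0825 (called in 14), for ARG2 from 0.0159 to 0.267 (called in 10) and for ARG7 from 0.0102 to 0.248 (called in 8).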

How the results depend on the processing

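Against the parent, all 8 members were called in every contrast under every alternative except 1. Of 512 alternative values, 511 kept direction and call, and CPA1 lost its call with the strain as a random block, where 3096 genes in place of 4725 were called in all. These counts include the mean over probe sets and the filter on dim genes, which could not change the members' log2 differences. The median over the members in the mean contrast was 1.52 with median centring, and 1.58 without it. Replicate numbers did not pair the arrays (correlations of deviations between strains from -0.12 to 0.03).

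Between strains, 314 of 384 values kept direction and call, 34 lost and 24 gained a call and 12 changed sign. Calls between strains 1 and 2 (3) were 1 with median centring and 5 each with quantile normalization, robust and trended moderation and the 2 groups alone, and 0 to 5 without single arrays. Between strains 1 and 3 (4) they were 2 to 5 without single arrays. Between strains 2 and 3 (2) they were 1 with median centring, 1 with the replicate block, 4 with robust and trended moderation and 0 to 3 without single arrays, where the count over all genes fell from 1744 to as low as 760. The F test's 5 became 3 with median centring and 2 to 6 without single arrays.

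Sign changes between strains were of small values. With median centring they gave -0.0028 (ARG4) and -0.0364 (ARG8) for strain 2 minus 1, -0.017 (CPA1) and a member median of -0.0064 for strain 3 minus 1, and 0.0071 (ARG4) for strain 3 minus 2. With quantile normalization they gave 0.012 (CPA1) for strain 2 minus 1, and 0.0114 (ARG4) and -0.0126 (ARG7) for strain 3 minus 2. Without single arrays the values ran from -0.0133 to 0.0749 (ARG8) and from -0.022 to 0.014 (CPA1) for strain 2 minus 1, and from -0.0197 to 0.0134 (ARG4) and from -0.0085 to 0.0366 (ARG7) for strain 3 minus 2. Of other genes in the mean contrast, LEU2 became 0.2117 with quantile normalization. Without single arrays LEU2 ran from -0.0929 to 0.027, VBA2 from -0.0678 to 0.0027, ALP1 from -0.0211 to 0.4453 and YOR302W from -0.2677 to 0.2308. The cause was not tested. Median centring left 39.1% of the calls of all genes between strains 1 and 2 higher, against 56.6%, and between strains 1 and 3 44.3% against 57.6%. The members' calls, higher and lower, went from 2 and 1 to 0 and 1, and from 2 and 2 to 1 and 2. With quantile normalization 4 members were called higher and 1 lower between strains 1 and 2, beside 1334 and 1443 of the 5449 genes. Most member counts under the alternatives stand here without those over all genes. They do not set the members apart from other genes.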

Other observations

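Chromosomes VIII, X, XIII and XV, which carry the 8 members, had median log2 differences between -0.04 and 0.05 in the mean contrast. Both genes next to a member were called in the direction of that member for ARG1, ARG4 and ARG8. Of all genes, 43.3% were called higher and 43.4% lower in this contrast. How often both neighbours of any other gene share its direction was not counted. Next to ARG1, GPD2 rose by 0.67 and YOL057W by 0.22, and next to ARG4, YSC83 rose by 1.17 and DED81, an asparaginyl-tRNA synthetase gene, by 1.94 ± 0.02 (SE). Next to ARG8, PPM2 fell by 0.87 and CDC33 by 0.11. Both fell beside the risen ARG3 (SIP4 by 0.87, TRL1 by 0.26) and ARG7 (RNA14 by 1.09, RIM9 by 3.14). Next to ARG2, PSF2 fell by 0.40 and YJL070C rose by 0.45. Next to ORT1, AFI1 was not called (-0.15) and YOR131C rose by 0.28, and after CPA1, ISW2 fell by 0.26.

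YOR302W, the protein-coding entry listed just before CPA1 in the reference, was chosen after its values were seen. Whether its probe set reads a transcript apart from that of CPA1 was not tested. Its level was 9.40 and 9.90 (log2 intensity) on the parental arrays and 9.39 to 9.86 on the evolved arrays, and the groups overlapped. It was not called in the mean contrast (-0.02 ± 0.14, SE, adjusted p = 0.903 with limma). The value became -0.27 without replicate 1 of the parent (adjusted p = 0.0491 with limma) and 0.23 without replicate 2 (adjusted p = 0.0782 with limma), so that single parental arrays decide it.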
